A study of Homo sapiens with 8 samples.

Results

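SNORA73A and SNORA73B are the 2 human genes for U17, a small nucleolar RNA (snoRNA) of the H/ACA box class. They were taken by name from a small RNA count table of 2962 features that also holds 146 other rows named SNORA. The data came from HEK293, a human embryonic kidney cell line. Cells were transfected by lipid reagent with 50 nM of a synthetic copy of a 3′ fragment of tRNA-Asp-GTC (a tRNA-derived small RNA, tDR) in 4 libraries, or with a scrambled control mimic in the other 4, and were harvested 48 h later. Total RNA was made into libraries by OTTR-seq, a method in which a reverse transcriptase joins both adapters while it copies the RNA. The labels do not say whether the 4 libraries of a group came from separate cultures, so p-values reflect only how far these libraries differ, and that spread may be technical.

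H/ACA snoRNAs fold into 2 hairpins joined by a hinge that carries the H box, and end in an ACA triplet. Most of them guide the conversion of uridine to pseudouridine in ribosomal RNA, together with the enzyme dyskerin and its partner proteins. U17, called snR30 in yeast, has the same fold and proteins but acts in the cleavage of the precursor of 18S ribosomal RNA. Conserved stretches in its 3′ hairpin, known as m1 and m2, pair with the 18S part of that precursor.

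The sequences of both genes are shown because the m1 and m2 stretches set U17 apart from the guide snoRNAs and because the similarity of the copies bears on how reads could be counted. They are the GENCODE release 29 transcripts, written 5′ to 3′ as DNA. Capitals mark m1, then m2, then the ACA box.
SNORA73A: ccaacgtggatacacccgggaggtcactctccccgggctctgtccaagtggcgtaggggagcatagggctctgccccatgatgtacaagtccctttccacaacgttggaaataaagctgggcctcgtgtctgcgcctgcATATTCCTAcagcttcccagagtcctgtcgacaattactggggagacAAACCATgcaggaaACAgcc
SNORA73B: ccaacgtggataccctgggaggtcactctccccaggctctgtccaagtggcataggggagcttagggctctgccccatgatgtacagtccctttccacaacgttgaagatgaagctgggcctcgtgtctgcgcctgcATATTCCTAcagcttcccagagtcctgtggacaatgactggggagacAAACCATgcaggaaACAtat

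SNORA73A (206 nt) lies on the plus strand of chromosome 1 at chr1:28507366-28507571 and SNORA73B (204 nt) at chr1:28508559-28508762 (GRCh38), with 987 bases between them. SNORA73A lay in an intron of all 5 RCC1 transcripts that span it and of 2 of 3 SNHG3 transcripts; SNORA73B lay in an intron of all 5 RCC1 and both SNHG3 transcripts that span it. RCC1 encodes a nucleotide exchange factor of the Ran GTPase, and SNHG3 is a noncoding host RNA that overlaps it.

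Counted from 1 at the 5′ end, the m1 stretch stood at bases 140 to 148 of SNORA73A and 138 to 146 of SNORA73B. The m2 stretch stood at bases 187 to 193 and 185 to 191. Searched as the letters ATATTCCTA for m1 and AAACCAT for m2, on the transcribed strand, neither was found in any of the 111 other SNORA rows whose name matched 1 annotated gene (0% for each motif). The ACA triplet 3 bases before the end was present in both U17 genes and in 87 of those 111 (78.4%). The H box pattern ANANNA occurred at base 109 of SNORA73A and base 107 of SNORA73B, ahead of m1, and at 2 later places in each that overlap m2 or its flank. The m1 and m2 letters searched were those of U17 itself, and how often they would occur by chance was not computed. Absence of these exact strings of 9 and 7 bases does not show that other rows lack related stretches. A match to letters is a description of the gene and not a measurement of its activity.

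The 2 genes were identical at 192 of 206 aligned positions (93.2%), with 12 mismatches and 2 gap positions. Their longest identical run was 54 bases, at bases 114 to 167 of SNORA73A, and it contains m1. Of the 177 windows of 30 bases in SNORA73A, 25 (14.1%) also occur in SNORA73B. A short read from such a window could be assigned to either gene. The sources used here do not give how such reads were assigned. The rows SNORA38_1, SNORA38_3, SNORA38_5 and SNORA38_6 held the same count as each other in every library. If reads shared by the U17 genes were counted at both, their sum would hold them double. Neither the split between the genes nor their sum is therefore certain, and the assignment was not tested. A further row named SNORA73.1 held between 0 and 8 counts per library and was not placed on the genome or added to U17.

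The 8 libraries held between 4016295 and 10246336 counts over all features. Transfer RNA features took 14.9 to 17.4% of the counts in the scramble libraries and 11.4 to 19.4% in the tDR libraries, where libraries 1 and 2 stood below libraries 3 and 4. The features counted include microRNAs, and the cell line was checked with these. The 5 listed as abundant in HEK293 summed to 983 to 1483 CPM (counts scaled to library size, with edgeR's TMM factors) in scramble libraries and 565 to 1019 CPM in tDR libraries. Most of this sum was hsa-miR-92a-3p, which was lower in tDR libraries (edgeR adjusted p below 0.05). The other listed microRNAs did not pass that threshold. On average hsa-miR-17-5p and hsa-miR-20a-5p were lower in tDR libraries. The rarer hsa-miR-10a-5p and hsa-miR-10b-5p added little to the sum and were slightly higher there. Of 10 microRNAs of blood, liver, muscle, nerve or endothelium, 5 had a row, none of these was at 0 in every library, and together they summed to 4.57 to 7.64 CPM and 7.24 to 12.5 CPM. Their part in the results was not tested.

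U17 was readily detected in all 8 libraries, and SNORA73A was the main copy. SNORA73A stood at 46.4, 57.3, 52.6 and 51.2 CPM in scramble libraries 1 to 4; tDR libraries 1 to 4 gave 75.4, 72.6, 57.3 and 45.7 CPM. The tDR group thus held both the highest values and the lowest one, and the groups overlapped. Unrounded, tDR library 3 (57.33 CPM) was just above the highest scramble value (57.27 CPM). SNORA73B stood at 20.3, 19.8, 17.1 and 15.6 CPM in scramble libraries 1 to 4. The values were, in tDR libraries 1 to 4, 17.6, 24.2, 20.5 and 16.1 CPM. The groups overlapped here too, and the high tDR library 1 of SNORA73A was not high for SNORA73B.

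**Figure D1:**
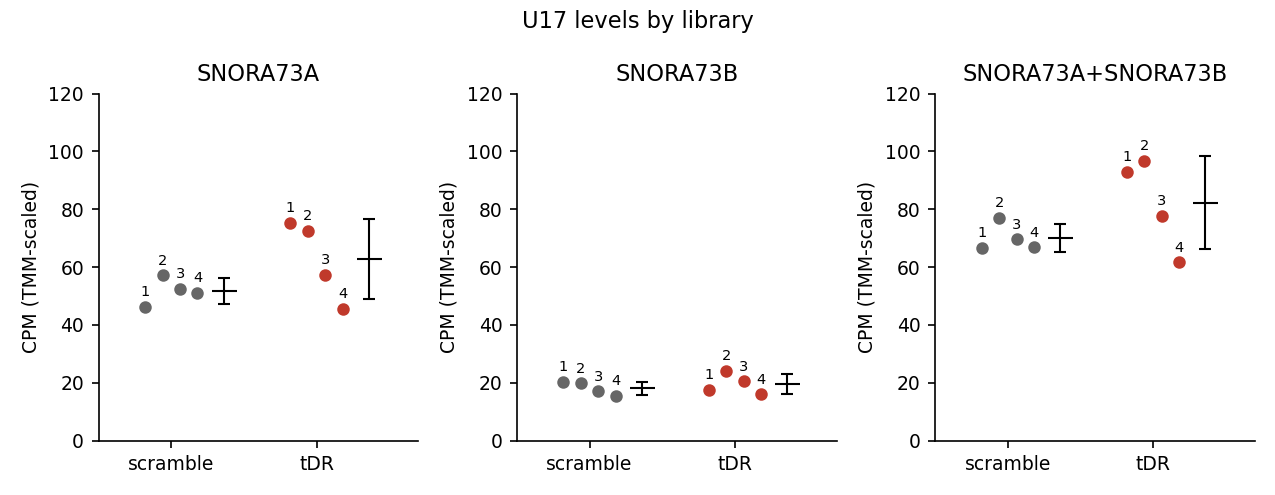
TMM-scaled CPM (y axis) of SNORA73A, SNORA73B and their sum in the scramble and tDR libraries. Points are libraries with their replicate number, and the bar beside them is the mean ± SD (n = 4). SNORA73A was above SNORA73B in every library, and in tDR libraries 1 and 2 it stood at 75.4 and 72.6 CPM, above all scramble libraries. In tDR library 3 it was just above the highest scramble value (57.33 against 57.27 CPM).

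Neither gene passed the test between the groups. SNORA73A averaged 51.8 ± 4.49 CPM in scramble and 62.7 ± 13.9 CPM in tDR libraries (SD, n = 4 each). The fitted log2 fold change of 0.27 (SE 0.16) gave an adjusted p of 0.351 in edgeR's quasi-likelihood test (Benjamini-Hochberg, 1761 features tested), and the 95% interval ran from 0.953-fold to 1.54-fold. SNORA73B averaged 18.2 ± 2.25 and 19.6 ± 3.57 CPM (SD, n = 4 each), a log2 difference of 0.10 (SE 0.19; by edgeR, adjusted p = 0.83) with an interval from 0.819-fold to 1.41-fold. The 95% intervals therefore leave room for a rise of up to those upper bounds as well as for a fall. For comparison, 6.7% of all tested features passed that threshold (0.05), 5.34% in the direction of higher tDR values and 1.36% in the other.

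In the sum of both genes it does not matter which copy a shared read was given to, though a read counted at both would count double. The sum stood at 66.7, 77.1, 69.6 and 66.8 CPM in scramble libraries 1 to 4. The tDR libraries 1 to 4 gave 93.0, 96.8, 77.8 and 61.7 CPM. The tDR values of libraries 1 to 3 exceeded every scramble value, that of library 3 only just (77.8 against 77.1 CPM). The value of tDR library 4 lay below all of them. The log2 fold change of the sum was 0.23 (SE 0.16; by edgeR, adjusted p = 0.418), with a 95% interval from 0.937-fold to 1.47-fold. Without tDR libraries 3 and 4, left out together after the data had been seen, the log2 fold change of SNORA73A was 0.51 (adjusted p = 0.052 by edgeR) and that of the sum 0.44 (adjusted p = 0.088), still not called. Without tDR library 4 alone they were 0.40 and 0.35 (adjusted p = 0.173 and 0.24), and without tDR library 1 they were 0.16 and 0.15 (adjusted p = 0.573 and 0.571).

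The spread between tDR libraries was wider than counting error. SNORA73A was counted 365, 604, 234 and 588 times in scramble libraries 1 to 4. For tDR libraries 1 to 4 the counts were 553, 466, 412 and 327. This gives a Poisson counting error of 4.07 to 6.54% per library. Its coefficient of variation between libraries was 8.66% in the scramble and 22.1% in the tDR group. SNORA73B was counted 160, 209, 76 and 179 times and 129, 155, 147 and 115 times, a counting error of 6.92 to 11.5%, against 12.4% and 18.2% between libraries. For SNORA73B in the scramble group the spread between libraries was thus little above the upper end of the counting error. The labels name no molecular identifiers, so these errors cover counting only.

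Per length, SNORA73A was among the abundant H/ACA snoRNAs and SNORA73B was near the upper middle. In the scramble libraries SNORA73A stood at 25.2 ± 2.18 CPM per 100 nt and SNORA73B at 8.92 ± 1.1 (SD, n = 4), against a median of 4.82 over the 113 SNORA rows with an annotated length. They ranked 11 and 45 of 113. The neighbours of SNORA73A in this order were SNORA65 at 25.3 ± 3.15 and SNORA18 at 24.4 ± 3.46 CPM per 100 nt, and those of SNORA73B were SNORA84 at 8.93 ± 1.83 and SNORA56 at 8.87 ± 0.482, each within the spread between libraries. The order began with SNORA33 at 61.7 ± 5.26, SNORA75 at 50.0 ± 3.13 and SNORA8 at 48.4 ± 4.08 CPM per 100 nt. In the tDR libraries the members ranked 10 and 46. Division by length assumes that reads arise along the whole RNA, which the files do not show.

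**Figure D2:**
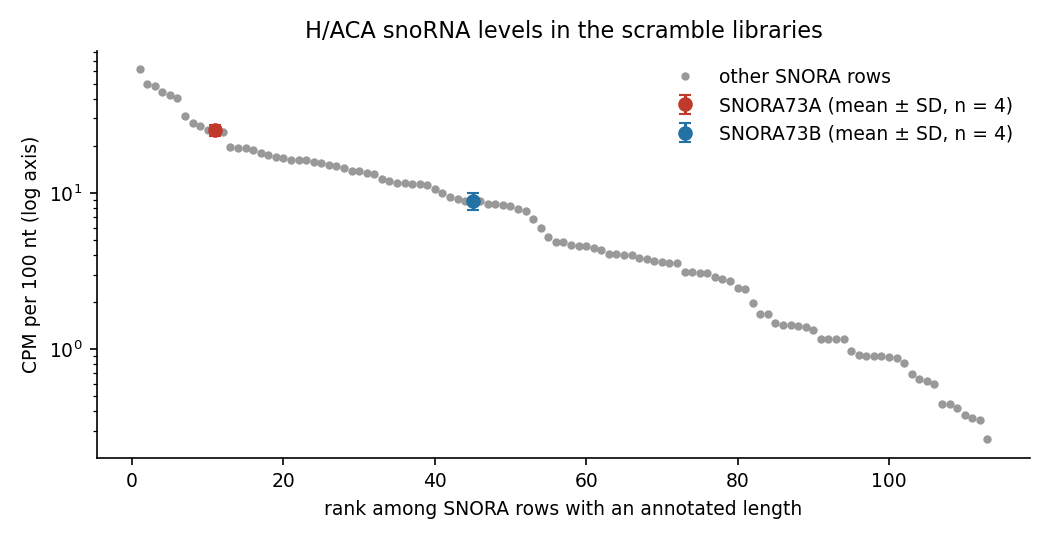
Mean scramble level of 113 SNORA rows in CPM per 100 nt (log y axis) against their rank (x axis); grey points are the other SNORA rows, and the members carry mean ± SD (n = 4). SNORA73A ranked 11 at 25.2 and SNORA73B ranked 45 at 8.92 CPM per 100 nt.

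Both genes lie in introns of RCC1 and SNHG3 transcripts, and they gave unequal counts. There were 2.28, 2.89, 3.08 and 3.28 counts of SNORA73A per count of SNORA73B in scramble libraries 1 to 4, against, for tDR libraries 1 to 4, 4.29, 3.01, 2.80 and 2.84. SNORA73A was higher in 8 of 8 libraries. The mean ratio was 2.88 ± 0.433 in scramble and 3.23 ± 0.707 in tDR libraries (SD, n = 4 each). On the log2 scale (pseudocount 0.5) the ratio differed between the groups by 0.16 (exact two-sided permutation p = 0.543, adjusted p = 0.814 over 3 ratio tests), less than the SD within either group (0.23 and 0.29). That difference rested on tDR library 1, without which it was 0.013, and on scramble library 1, without which it was 0.048.

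U17 was then set against the other H/ACA snoRNAs, which needs no library scaling. The pair took 3.96, 4.10, 3.63 and 3.96% of the counts over SNORA rows in scramble libraries 1 to 4. In tDR libraries 1 to 4 it took 4.36, 4.49, 4.31 and 3.55%, with rows of identical counts taken once. The first 3 tDR libraries were above all scramble libraries and tDR library 4 was below them. The means of 3.91 ± 0.2% and 4.18 ± 0.424% (SD, n = 4 each) differed by 0.267 percentage points (exact two-sided permutation p = 0.371, adjusted p = 0.814 over 3 ratio tests). Without tDR library 4, which lay below all scramble libraries, the difference was 0.476 percentage points. The groups then did not overlap, so the exact permutation p took its smallest value for 3 against 4 (0.0571). That value follows from leaving out this library. Without tDR library 2 the difference was 0.163. Without tDR libraries 3 and 4 together it was 0.516. The SNORA73B share taken alone was lower in tDR libraries by 0.018 percentage points.

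**Figure D3:**
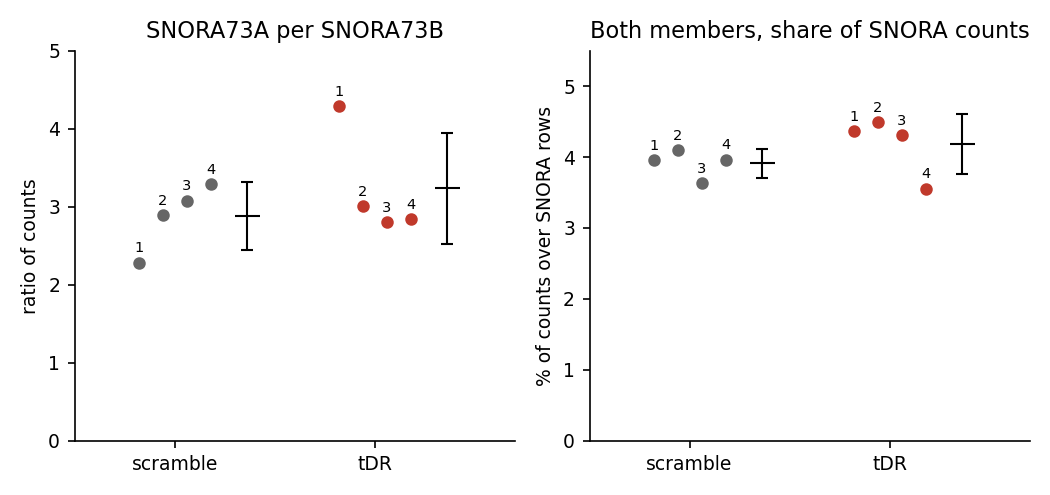
Counts of SNORA73A per count of SNORA73B (left) and the percentage of SNORA counts taken by both members (right) in each library, numbered by replicate, with mean ± SD (n = 4). tDR library 1 stands apart in the left panel at 4.29, and tDR library 4 is the lowest library in the right panel at 3.55%.

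The other H/ACA snoRNAs, summed, followed a like order across the tDR libraries. Their sum was 1728, 1903, 1966 and 1725 CPM in scramble libraries 1 to 4. For tDR libraries 1 to 4 it was 2176, 2183, 1854 and 1782 CPM, so that tDR libraries 1 and 2 were high for the class as well as for SNORA73A. Of the 146 other SNORA rows, 125 passed the filter on low counts, and edgeR called 0 of them, beside 6.7% of all features. DESeq2 and limma-voom also called 0 of the 125, beside 191 and 121 of all 1761 features. At an unadjusted p below 0.05 edgeR had 5 of the 125, all higher, where all tested features had 21.5% (12.8% higher and 8.69% lower). These 5, named after their values were seen, were SNORA18, SNORA2B, SNORA46, SNORA58 and SNORA71B. The median log2 fold change over the 125 was 0.12, with 94 above 0 and 31 below (75.2% above), beside 0.02 over all tested features, of which 919 were above 0 and 842 below (52.2% above). Some SNORA rows share their counts. Taking once those rows that lay within 10% or 3 counts of each other throughout, 83 of 112 were above 0, 29 were below, and the median was 0.115. SNORA73A ranked 30 and SNORA73B 70 from the highest log2 fold change among the 127 tested SNORA rows, members included.

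The extremes of the class were rare RNAs. SNORA46 went from 1.24 ± 0.476 to 2.70 ± 1.07 CPM, a log2 difference of 1.15 (SE 0.42; by edgeR, adjusted p = 0.108), and SNORA11F from 1.83 ± 0.725 to 1.06 ± 0.342 CPM, one of -0.80 (SE 0.44; by edgeR, adjusted p = 0.292). The groups did not overlap for 2 of the 125, SNORA2C (higher) and SNORA28 (lower), both named after their values were seen, where all tested features had 13.3% (7.78% higher and 5.51% lower). The abundant SNORA33, SNORA75 and SNORA8 had log2 fold changes of -0.025, 0.068 and 0.059, all nearer to 0 than SNORA73A. Scaling moved all features together. Under total counts the median of all features was -0.125, that of the other SNORA rows -0.028, and SNORA73B stood at -0.051. Under scaling on microRNAs alone the class median was 0.44, the median of all features 0.36, and SNORA73A and SNORA73B stood at 0.59 and 0.42 (edgeR adjusted p = 0.079 and 0.304). With the other SNORA rows as the scale the median of all features was -0.093, and SNORA73A stood at 0.14 and SNORA73B at -0.022 (edgeR adjusted p = 0.572 and 0.968). Relative to the median of all features, SNORA73A stood at 0.25, 0.25, 0.23 and 0.23, and SNORA73B at 0.082, 0.074, 0.056 and 0.071, under TMM, total counts, microRNA scaling and SNORA scaling.

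**Figure D4:**
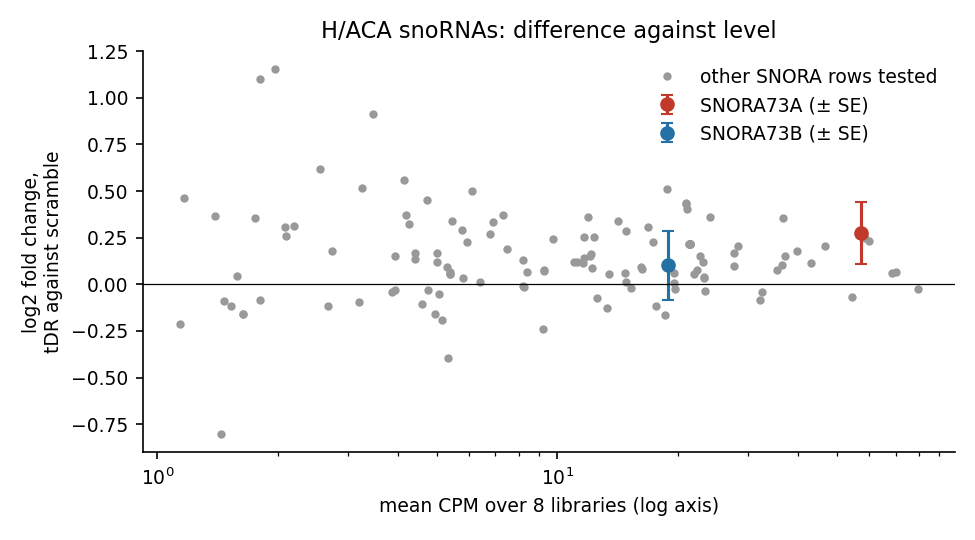
Log2 fold change of tDR against scramble (y axis) against mean CPM over the 8 libraries (log x axis) for the 127 tested SNORA rows; members carry ± SE. SNORA73A (0.27) and SNORA73B (0.10) lie within the range of the other rows, whose extremes of 1.15 and -0.80 are at low CPM.

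U17 works beside other RNAs in the processing of the ribosomal RNA precursor, and of these RMRP was called. The list had 24 rows, of which 19 were tested, with 1 called higher and 0 lower. These counts are near the shares over all features, 5.34% and 1.36%. The median log2 fold change of the list was 0.099, beside 0.02 over all tested features. The list holds U3 in several rows of nearly equal counts (SNORD3A, SNORD3B-1, SNORD3B-2, SNORD3C and SNORD3D), so its counts and median are not over independent RNAs. At an unadjusted p below 0.05 it held 3 rows, RMRP and SNORD14B higher and SNORD3K lower, and these were also its rows whose groups did not overlap. Over all features 21.5% had such a p and 13.3% had groups that did not overlap. SNORD14B, a U14 gene, went from 50.3 ± 7.64 to 63.8 ± 5.78 CPM (log2 difference 0.35; by edgeR, adjusted p = 0.185), and SNORD3K, a rare U3 row, from 5.09 ± 0.349 to 3.38 ± 1.00 CPM (log2 difference -0.58; adjusted p = 0.229); both were named after their values were seen. RMRP, the RNA of ribonuclease MRP, which cuts between the 18S and 5.8S parts of the precursor, rose from 63.1 ± 6.80 to 96.8 ± 9.32 CPM (SD, n = 4 each), by 0.62 on the log2 scale with SE 0.14 (adjusted p = 0.0119 by edgeR). The call was lost under total counts and with a replicate block (adjusted p = 0.0737 and 0.0812).

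Among the H/ACA RNAs linked to 18S processing along with U17, SNORA62 (E2) stood at 26.6 ± 3.84 and 28.6 ± 5.20 CPM and SNORA63 (E3) at 23.7 ± 1.74 and 23.0 ± 5.24 CPM. Their log2 fold changes were 0.099 and -0.037 (by edgeR, adjusted p = 0.83 and 0.934). SNORA62 was at 34.8, 31.0, 24.9 and 23.7 CPM in tDR libraries 1 to 4, the same order as SNORA73A. SNORA63 had another order, at 23.3, 29.1, 23.4 and 16.3 CPM. SNORD118 (U8, below) and the rare SNORA46 also fell from tDR library 1 to 4, so the order is not particular to RNAs of 18S processing. How many of all tested features share this order was not counted, so a match between single RNAs carries little weight.

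The C/D box RNAs of the same work gave differences of both signs that did not pass. SNORD3A, a gene of U3, which pairs with the precursor at the start of 18S processing, stood at 615, 430, 428 and 399 CPM in scramble libraries 1 to 4, while tDR libraries 1 to 4 gave 484, 647, 579 and 490 CPM. Its log2 fold change was 0.23 (SE 0.17; by edgeR, adjusted p = 0.477). It was 0.39 without scramble library 1, the highest scramble value (adjusted p = 0.177), and 0.14 without scramble library 4. SNORD118 (U8), which acts on the 28S side, stood at 384, 433, 415 and 414 CPM in scramble libraries and at 421, 370, 265 and 231 CPM in tDR libraries, each in the order 1 to 4. The log2 difference was -0.35 with SE 0.18 (adjusted p = 0.258 by edgeR), and tDR libraries 3 and 4 lay below all others. It was -0.22 without tDR library 4, -0.53 without tDR library 1 (adjusted p = 0.052 by edgeR) and -0.057 without tDR libraries 3 and 4 together. SNORD13 (U13) and SNORD14C (U14) had log2 fold changes of -0.20 and 0.0048 (by edgeR, adjusted p = 0.556 and 0.99). SNORD13 ranged from -0.35 without tDR library 1 to -0.10 without tDR library 3, and stood at 0.054 without tDR libraries 3 and 4 together. The U3 rows SNORD3A, SNORD3B-1, SNORD3B-2, SNORD3C and SNORD3D had nearly equal counts and are not independent.

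U3 was the reference for a ratio within the 18S pathway. There were 9.22, 5.58, 6.15 and 5.97 counts of SNORD3A per count of U17 in scramble libraries 1 to 4. The tDR libraries 1 to 4 had 5.20, 6.68, 7.44 and 7.93. The groups overlapped, and scramble library 1 was the highest. The log2 ratio of U17 to SNORD3A was -2.72 ± 0.328 and -2.75 ± 0.268 (SD, n = 4 each), a difference of -0.030 (exact two-sided permutation p = 0.914, adjusted p = 0.914 over 3 ratio tests). It was -0.19 without scramble library 1 and 0.050 without scramble library 2. RNA18SN2, the 18S rRNA row with the highest count, stood at 34170 ± 4080 and 41338 ± 5865 CPM, a log2 difference of 0.27 with SE 0.13 (adjusted p = 0.226 by edgeR).

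**Figure D5:**
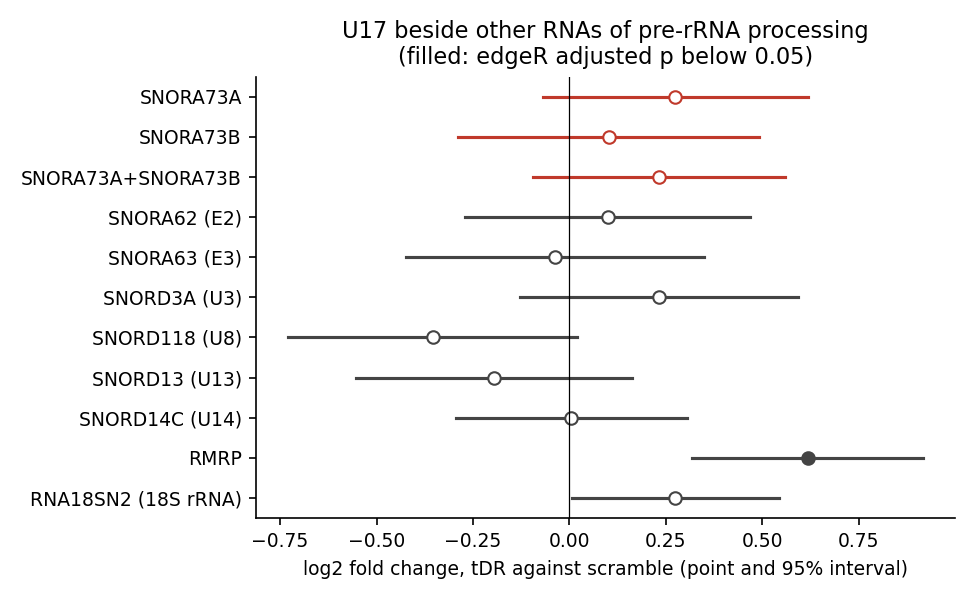
Log2 fold change of tDR against scramble with its 95% interval (x axis) for U17, its sum, other RNAs of pre-rRNA processing and an 18S rRNA row; a filled point marks an edgeR adjusted p below 0.05. The intervals of SNORA73A (-0.069 to 0.62), SNORA73B (-0.29 to 0.49) and their sum (-0.093 to 0.56) include 0, and RMRP at 0.62 is the filled point. The interval of RNA18SN2 (0.0062 to 0.54) lies just above 0, though its adjusted p of 0.226 by edgeR did not pass.

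The features most like each U17 gene were found by the root-mean-square distance between log2 CPM profiles over the 8 libraries, each centred on its own mean. For SNORA73A these were SNORA16A (0.103), SNORD38B (0.116), Y_RNA.28 (0.122), SNORD61 (0.125) and SNORD18A (0.127), against a median distance of 0.393 over 1760 features. For SNORA73B they were SNORD95 (0.073), SNORA14B (0.103), SNORD41 (0.107), RPPH1 (0.116) and RNA5S1 (0.117), against a median of 0.363. The other U17 gene was not among them. The distance between the pair was 0.238, which ranked 212 from SNORA73A and 301 from SNORA73B among 1760 features. It was below the median distance to the other 125 tested SNORA rows, 0.279 from SNORA73A and 0.308 from SNORA73B. All profiles share the same libraries and scaling. With 1 library left out, 1 to 4 of the 5 nearest features of SNORA73A and 1 to 3 of those of SNORA73B remained among the nearest 5.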

How the data were processed

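Sample labels gave the groups and replicate numbers. Per the submitters' processing notes the build is hg38. The sources used here name no aligner, counter or annotation. The deposited raw table holds whole-number counts per feature; the 2 rows that name no gene (scr, scr2; 0.000749 to 0.565% of a library) were left out. The second deposited table holds a normalized signal, which comparison with the raw file showed to be counts the authors divided by a factor per library, separate for tRNA and other features. Features were tested on raw counts with edgeR 4.0.16 (R 4.3.3): filterByExpr, TMM, robust quasi-likelihood fit without covariates, with calls at a Benjamini-Hochberg adjusted p under 0.05. The filter passed 1761 features and removed 1201. SE is the size of the log2 fold change over the square root of F. Ratios used exact permutation over 70 arrangements, adjusted over 3 tests; with 4 libraries against 4 the smallest two-sided p is 0.0286.

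Named were both members, the 3 SNORA rows highest per length, the largest rise and fall, any called, fixed pre-rRNA processing RNAs, the top 18S row and the 5 nearest profiles. Members and lists were chosen with earlier results of these data known. Between libraries of a group the chi-square over its degrees of freedom was at least 15.6, so none was a copy. Alternatives were other scalings, filters, DESeq2 1.42.0, limma-voom (limma 3.58.1), limma on the log2 signal, a replicate block and leaving out libraries. Lengths and sequences came from GENCODE release 29 (113 of 148 SNORA rows matched 1 gene), aligned with Biopython 1.88.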

Additional observations from a re-analysis of the deposited data

Results flagged for a closer look

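In 38 groups of 4 libraries examined, 2 had a single library far from the others by Dixon's ratio (critical value 0.829), about what chance flags at 1 in 20 groups. The log2 ratio of SNORA73A to SNORA73B was 2.10 in tDR library 1, against 1.48 to 1.58 in tDR libraries 2 to 4 (gap over range 0.834). SNORD3A stood at 615 CPM in scramble library 1, against 399 to 430 CPM in the other scramble libraries (gap over range 0.854).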

How the results depend on the processing

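SNORA73A and the sum stayed above 0 and uncalled in each of 19 alternatives, at log2 fold changes of 0.12 to 0.59 and 0.081 to 0.54 (adjusted p from 0.052 to 0.757 and 0.088 to 0.839). With 1 library left out they ranged from 0.16 to 0.40 and 0.15 to 0.35, and SNORA73B from -0.0082 to 0.19. SNORA73B was uncalled throughout and below 0 under total counts (-0.051) and SNORA scaling (-0.022). Calls among other SNORA rows became 4 of 125 under microRNA scaling (SNORA2C, SNORA2B, SNORA46, SNORA58), where 158 of 1761 features were called. Pre-rRNA calls became 0 of 19 under total counts, where all features had 93 calls, and with the replicate block. With that block SNORA73A stood at 0.25 and SNORA73B at 0.094 (adjusted p = 0.558 and 0.912), and calls over all features were 39 instead of 118. They were 65 without scramble library 2, and 191 with DESeq2. Same-numbered libraries correlated at -0.34 to -0.12, so the numbers were not taken to pair them. Exact sign flips of same-numbered differences gave p = 0.5, 0.875 and 1 for the share, the SNORA73A to SNORA73B ratio and the U3 ratio, where 0.125 is the smallest possible.

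Of the uncalled features, microRNA scaling turned SNORA33 to 0.33, SNORD13 to 0.12 and SNORA63 to 0.28, and SNORA46 was called (1.47). Total counts turned SNORA75 to -0.069, SNORA8 to -0.085, SNORA62 to -0.046 and SNORD14C to -0.14. SNORA scaling turned them to -0.055, -0.058, -0.035 and -0.097. SNORD14C was also below 0 with DESeq2 size factors (-0.0081), the DESeq2 test (-0.0079), a mean count of at least 50 (-0.040) and with tDR libraries 3 and 4 left out (-0.076), where SNORD13 was at 0.054 and SNORA63 at 0.15. The limma fit on the signal put SNORA33 at 0.025. With 1 library left out SNORA33 ranged from -0.091 to 0.014, SNORA8 from -0.0060 to 0.11, SNORD14C from -0.073 to 0.060, SNORA62 from -0.019 to 0.18 and SNORA63 from -0.16 to 0.10. The ratio of SNORA73A to SNORA73B turned to -0.028 with medians, and the share of SNORA73B alone was -0.018. The U3 ratio ranged from -0.19 to 0.050 with 1 library left out, and was -0.22 with medians, 0.16 without tDR libraries 3 and 4 and 0.083 against U3, U8, U13 and U14 together. The cause was not tested. Members had 76 to 604 counts per library.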
